A study of Mus musculus with 8 samples.

Results

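The HOX cluster genes are the homeobox transcription factor genes that lie side by side in 4 clusters, HOX A on chromosome 6, HOX B on chromosome 11, HOX C on chromosome 15 and HOX D on chromosome 2. The 38 members described here were chosen by name and not by any measured value, though earlier results of these data were known. They are among 21883 protein-coding genes with a position in the RefSeq annotation of the mouse genome build GRCm38 (mm10). There were 10 members in HOX A, 10 in HOX B, 9 in HOX C and 9 in HOX D. Whole lysates of embryonic cerebral cortex at E15.5 had been profiled by ChIP-seq, a method that sequences the DNA recovered with an antibody against a chromatin protein or histone mark. The antibody, ab8895, is sold against histone H3 monomethylated on lysine 4; the labels call the mark H3K4me. There were 2 WT libraries from Prdm16 flox/flox embryos, which carry the floxed alleles and no Cre, and 2 cKO libraries from Emx1Ires-Cre; Prdm16flox/flox embryos. All 4 libraries therefore carried floxed Prdm16. Emx1 drives Cre in progenitors of the dorsal forebrain and their descendants, so interneurons, microglia and vessel cells of the same lysate are not targets of this Cre. The labels do not say which embryos went into which library, so any p-value measures the spread between these libraries only.

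Hox proteins give cells along the body axis their position. Genes at the 3' end of a cluster (low paralog numbers) act in the hindbrain and neck, and genes at the 5' end (high paralog numbers) act in the trunk, limbs and tail. The forebrain forms in front of every Hox domain, and there the clusters are held silent by Polycomb complexes, which place methylation on lysine 27 of histone H3. H3K4 monomethylation marks enhancers and the flanks of promoters, and can also lie at promoters that are held silent but poised. A peak of this mark is not a measure of transcription.

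The 4 promoter windows printed here show where recurrent peaks lay and a CpG-rich promoter without them. The windows of Hoxa5, Hoxd11 and Hoxd1 had peak bases in every library, and that of Hoxa13, which holds more CG, had none in any. They are from the RefSeq promoter table of GRCm38.p6, 250 bases before to 50 bases after an annotated start, 5' to 3' on the strand of the gene, and capitals mark each CG.
Hoxa5, chr6:52204538-52204837, minus strand: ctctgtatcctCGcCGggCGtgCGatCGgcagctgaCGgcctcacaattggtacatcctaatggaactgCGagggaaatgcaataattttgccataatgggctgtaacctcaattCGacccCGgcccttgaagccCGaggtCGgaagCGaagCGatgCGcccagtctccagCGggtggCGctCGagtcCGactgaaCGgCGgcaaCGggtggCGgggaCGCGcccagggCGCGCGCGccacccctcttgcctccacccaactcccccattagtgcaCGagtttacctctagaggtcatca
Hoxd11, start within the gene, chr2:74682073-74682372, plus strand: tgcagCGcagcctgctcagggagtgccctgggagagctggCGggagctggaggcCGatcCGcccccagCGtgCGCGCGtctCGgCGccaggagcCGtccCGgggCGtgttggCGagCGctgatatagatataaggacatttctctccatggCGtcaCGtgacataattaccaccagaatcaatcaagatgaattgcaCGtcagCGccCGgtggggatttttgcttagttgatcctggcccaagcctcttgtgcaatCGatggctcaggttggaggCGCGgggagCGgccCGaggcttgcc
Hoxd1, chr2:74762730-74763029, plus strand: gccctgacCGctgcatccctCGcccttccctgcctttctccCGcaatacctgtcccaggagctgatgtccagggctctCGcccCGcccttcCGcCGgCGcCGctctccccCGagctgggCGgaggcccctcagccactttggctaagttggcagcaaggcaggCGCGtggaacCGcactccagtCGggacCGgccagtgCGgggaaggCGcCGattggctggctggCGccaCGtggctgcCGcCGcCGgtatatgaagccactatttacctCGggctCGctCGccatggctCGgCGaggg
Hoxa13, chr6:52260831-52261130, minus strand: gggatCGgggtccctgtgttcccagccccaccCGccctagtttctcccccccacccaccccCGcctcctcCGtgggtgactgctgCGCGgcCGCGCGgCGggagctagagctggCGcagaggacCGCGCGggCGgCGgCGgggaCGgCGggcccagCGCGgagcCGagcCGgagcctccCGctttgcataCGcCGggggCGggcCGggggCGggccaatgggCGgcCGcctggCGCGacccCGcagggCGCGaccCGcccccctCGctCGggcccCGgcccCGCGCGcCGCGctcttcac

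The authors deposited a list of broad peaks for each ChIP library, so every value below is a number of bases under those peaks. WT replicates 1 and 2 had 75314 and 66476 peaks over 130.3 and 113.9 Mb. cKO replicates 1 and 2 had 80519 and 82683 peaks over 148.4 and 166.4 Mb. Covered length averaged 122 Mb ± 11.6 (SD, n = 2) in WT and 157 Mb ± 12.7 (SD, n = 2) in cKO, a ratio of 1.29. The groups did not overlap, and the two-sided exact permutation test gave p = 0.333, the smallest that 2 against 2 allows. Read depth is unknown from these files, and its part in the covered length was not tested. Prdm16 itself had peaks over 45.1% and 42.1% of its locus in WT and over 50.2% and 53.2% in cKO. That does not check the deletion, because peaks of this mark on a locus do not show whether an exon is present.

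The cortex label was set against marker loci, a locus being the gene plus 10 kb on either side. All 8 cerebral cortex markers had peaks in every library, and their median locus was covered over 63.6% ± 4.03 (SD, n = 4 libraries). The 10 hindbrain and spinal cord markers, regions where Hox genes are active, also had peaks in every library, with a median of 22.1% ± 6.97. Their median was 18.6% and 15.8% in WT and 22.4% and 31.8% in cKO, and cKO replicate 2 was the highest. The 5 microglia markers had a median of 3.89% ± 0.210, and each of the 5 had peaks in at least 1 library. The part of such cells in the HOX values was not tested.

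The HOX clusters were thinly covered. The 4 cluster intervals, from the first to the last member, span 485 kb together. Of these, 13265 and 10009 bases lay under peaks in the WT replicates 1 and 2, or 2.74% and 2.06%. In the cKO replicates 1 and 2 it was 14245 and 29169 bases, or 2.94% and 6.01%. The first 3 libraries were close to each other and cKO replicate 2 stood apart. Across the span between the first and last genes of each chromosome the same libraries were covered over 4.82%, 4.22%, 5.49% and 6.15%. The share of the 4 intervals together was therefore 0.567, 0.490, 0.535 and 0.977 times the genome share. It was below the genome share in all 4 libraries but nearly level with it in cKO replicate 2. HOX D taken by itself went against this, at 4.78% and 4.39% in WT and 6.39% and 10.3% in cKO. It was above the genome share in every library but WT replicate 1, where it was nearly level. In bulk tissue, fewer cells with the mark and less mark per cell cannot be told apart.

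**Figure D1:**
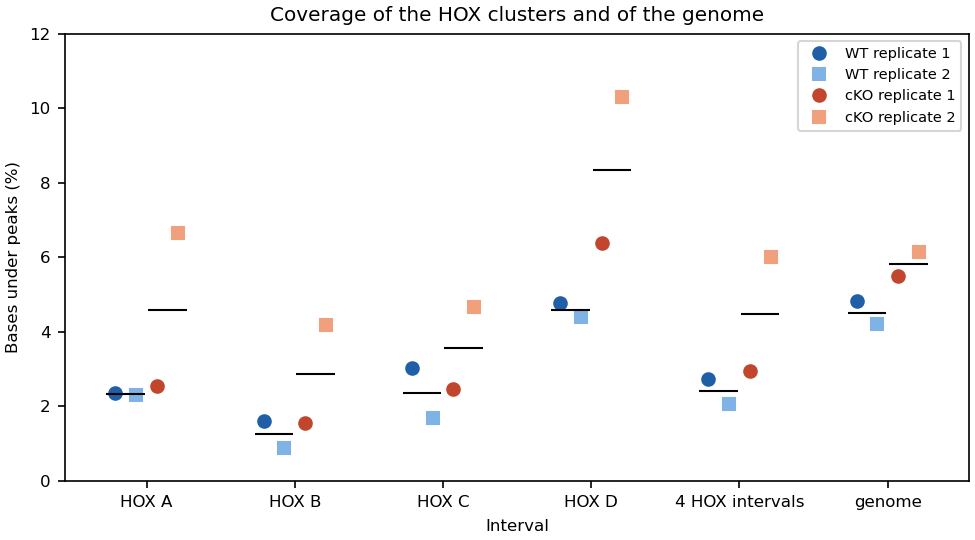
Bases under H3K4me peaks as a percentage of each HOX cluster interval, of the 4 intervals together and of the genome (y axis), for the 2 WT (blue) and 2 cKO (red) libraries; black lines are group means (n = 2). The 4 HOX intervals together were at 2.06% to 2.94% in 3 libraries and at 6.01% in cKO replicate 2.

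The peaks that did lie in the clusters were narrow and weak. Per library there were 20 and 12 HOX peaks for WT, and 19 and 31 for cKO. Their median fold enrichment over background, the value the authors' caller gave, was 3.48 and 3.45 in WT and 3.58 and 3.42 in cKO. The whole lists had medians of 4.15, 3.72, 3.99 and 3.81 in the same order. The median HOX peak was 634 and 774 bases wide in WT and 648 and 807 in cKO, against 1171, 1168, 1243 and 1337 bases for the whole lists. In each library the HOX median was the lower of the pair for both measures. The strongest HOX peak of any library had a fold of 4.68, in cKO replicate 1 beside Hoxd13, and 26.8% of the peaks of that library had a higher fold.

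In HOX A (chr6:52162417-52260880) the covered share was 2.36% and 2.30% in WT and 2.54% and 6.64% in cKO. The cKO to WT ratio was 1.97, and 1.09 without cKO replicate 2. In HOX B (chr11:96194316-96368254) it was 1.61% and 0.887% in WT and 1.55% and 4.18% in cKO, a ratio of 2.29, and 1.24 without that library. In both clusters cKO replicate 2 was the highest, and in HOX B cKO replicate 1 lay between the WT libraries. In HOX C (chr15:102921131-103036856) the share was 3.03% and 1.68% in WT and 2.47% and 4.66% in cKO, a ratio of 1.51, and 1.05 without cKO replicate 2. In HOX D (chr2:74668225-74765142) it was 4.78% and 4.39% in WT and 6.39% and 10.3% in cKO, a ratio of 1.82, and 1.39 without it. HOX D was the most covered cluster in every library. The groups did not overlap in HOX A and HOX D and overlapped in HOX B and HOX C, with two-sided exact permutation p = 0.333 for A and D and 0.667 for B and C. Over all 4 intervals the mean was 2.40% ± 0.475 (SD, n = 2) in WT and 4.48% ± 2.18 (SD, n = 2) in cKO, with p = 0.333 by the exact test. The ratio of 1.87 became 1.22 without cKO replicate 2, when that of the genome was 1.21, and 2.51 without cKO replicate 1. The larger HOX ratio therefore rested on cKO replicate 2. When every list was limited to the same covered length, keeping the most significant peaks, the log2 ratio turned negative in all 4 clusters, at -0.32, -0.21, -0.73 and -0.42 from A to D. That setting kept WT replicate 2, the shortest list, whole and cut the cKO lists most. The median -log10 q of HOX peaks was 2.45 and 2.32 in WT and 3.08 and 2.98 in cKO. The whole lists had 3.79, 2.98, 4.14 and 3.71 in the same order. The cut could thus remove weak HOX peaks mainly from cKO, and its part in the sign was not tested.

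Peaks formed 35 separate pieces in the clusters when the 4 lists were laid over each other, and 29 of them touched a member. There were 10 pieces with bases in every library, 2 in HOX A, 2 in HOX B, 2 in HOX C and 4 in HOX D. Of these, 9 lay on a member and the other in the long noncoding RNA gene Haglr, at chr2:74749402-74750342. Their median length was 1536 bases, against 741 for the 25 pieces found in fewer libraries. No piece was in both WT libraries and absent from cKO. A single piece was in both cKO libraries and in no WT library, at chr2:74752792-74753328 between Hoxd3 and Hoxd1, with 475 and 495 bases. By contrast 11 pieces were in cKO replicate 2 alone, against 2 in WT replicate 1 alone, 1 in cKO replicate 1 alone and 0 in WT replicate 2 alone. The same shares over pieces of the whole genome were not computed. Whether these counts are particular to the HOX clusters is therefore unknown.

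**Figure D2:**
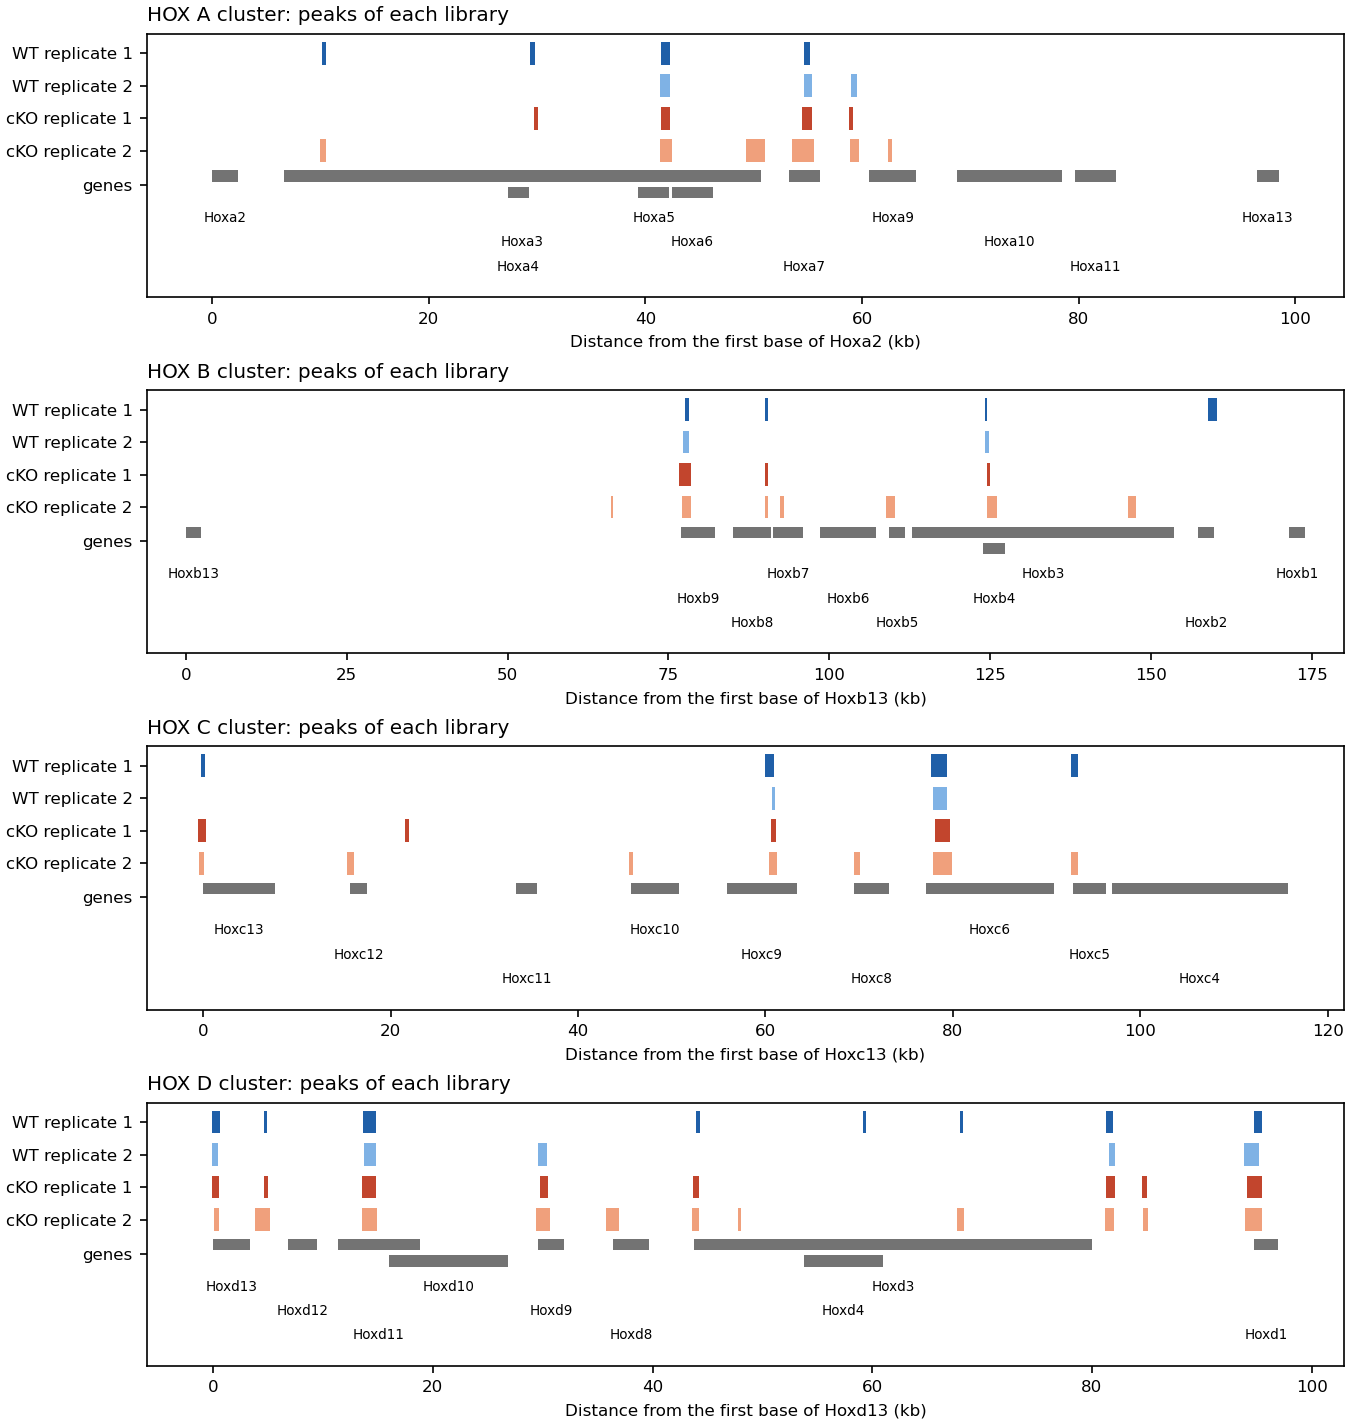
Peaks of each library (coloured bars, 1 row per library) along the 4 HOX clusters, with gene spans in grey below; the x axis is distance in kb from the first base of the first member. Of 35 pieces, 10 recur in all 4 libraries and 11 are in cKO replicate 2 alone.

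Long stretches of each cluster had no peak in any library. The longest in HOX A was 35.7 kb and held Hoxa10, Hoxa11 and Hoxa13 whole, the genes of uterus, forearm and digit formation. That of HOX B was 66.0 kb and held Hoxb13, a gene of the tail and prostate. In HOX C stretches of 23.5 kb and 22.4 kb held Hoxc11 and Hoxc4. The longest in HOX D was 14.5 kb and held Hoxd10, a gene of lumbar motor neurons.

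Of the 38 gene spans, 11 had peak bases in all 4 libraries, against 60.7% of all coding genes. They were Hoxa3, Hoxa5, Hoxa7, Hoxb3, Hoxb4, Hoxb9, Hoxc6, Hoxc9, Hoxd1, Hoxd11 and Hoxd13. There were 13 with no peak base in any library, against 29.4% of all coding genes. Genes were not matched for span length in these comparisons, and a longer span has more room for a peak. They were Hoxa2, Hoxa4, Hoxa6, Hoxa10, Hoxa11, Hoxa13, Hoxb1, Hoxb6, Hoxb13, Hoxc4, Hoxc11, Hoxd10 and Hoxd12. Of the rest, 4 had peaks in 3 libraries, 1 in 2 and 9 in 1. Spans are not all separate: 10 members share bases with another, among them Hoxa3, whose annotated span runs over Hoxa4, Hoxa5 and Hoxa6. The single library was cKO replicate 2 for Hoxa9, Hoxb5, Hoxb7, Hoxc8, Hoxc10, Hoxc12 and Hoxd8, and WT replicate 1 for Hoxb2 and Hoxd4. By library, 17 and 12 members had peaks in WT and 15 and 23 in cKO.

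Recurrent peaks lay on genes at both ends of the clusters. Peaks in all 4 libraries were found on 4 of the 11 members of paralog groups 1 to 4, which act in hindbrain and neck. They were found on 3 of the 11 members of groups 5 to 8 and on 4 of the 16 members of groups 9 to 13. No peak in any library was seen on 4, 2 and 7 members of these groups, respectively. Members can share a peak, so these are not counts of separate peaks. The only piece on Hoxa3 found in every library was the one on Hoxa5, and Hoxb3 and Hoxb4 shared the same piece. No test was run on these counts.

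In HOX A, Hoxa7, a gene of trunk identity (chr6:52215623-52218573), had 597 and 743 bases of its 2951 under peaks in WT and 904 and 1994 in cKO. Both cKO libraries were above both WT libraries, and cKO replicate 2 stood far above the rest. Hoxa5, which acts in the neck and lung (chr6:52201754-52204587), had 728 and 845 of 2834 bases in WT and 763 and 873 in cKO. The 4 libraries lay close together at 28.3% ± 2.40 (SD, n = 4) of the span, with WT and cKO overlapping. Hoxa3, a gene of the thymus and parathyroid (chr6:52169059-52213067), had 1730 and 945 of 44009 bases in WT and 1196 and 2979 in cKO, and part of these bases are those of Hoxa5. Hoxa9, known for its part in blood progenitors, had 0 bases in both WT libraries and in cKO replicate 1, and 387 of 4274 in cKO replicate 2. The other 6 members of the cluster had none.

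In HOX B, Hoxb9, a gene of thoracic identity (chr11:96271330-96276595), had 679 and 993 of its 5266 bases under peaks in WT and 1436 and 1496 in cKO. The groups did not overlap, and here cKO replicate 1 was nearly as high as cKO replicate 2. Hoxb4, which can expand blood stem cells (chr11:96318267-96321638), had 321 and 550 of 3372 bases in WT and 428 and 1564 in cKO. The groups overlapped, with cKO replicate 2 apart. Hoxb8, whose loss in mice causes excessive grooming, had 492 and 0 of 5925 bases in WT and 455 and 504 in cKO. Hoxb5, a gene of the enteric nervous system, had 0 in 3 libraries and 1070 of 2610 bases in cKO replicate 2. Hoxb2, a hindbrain gene, had 828 of 2389 bases in WT replicate 1 and 0 elsewhere. Hoxb8 thus lacked a peak in WT replicate 2, the list with the fewest peaks, while Hoxb5 and Hoxb2 each rested on a single list. Hoxb3, whose span contains Hoxb4, had 321 and 550 of 40830 bases in WT and 428 and 2809 in cKO, and Hoxb7 had 621 of 4560 in cKO replicate 2 alone.

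In HOX C, Hoxc6, which acts at forelimb and thoracic levels (chr15:102998226-103011882), had 1706 and 1567 of its 13657 bases under peaks in WT and 1611 and 1961 in cKO. Its mean was 12.5% ± 1.29 (SD, n = 4) of the span and the groups overlapped. That SD was the smallest among the 11 members with peaks in all 4 libraries. Relative to the mean, Hoxa5 varied less, at 28.3% ± 2.40. Hoxc9, which sets the thoracic identity of motor neurons (chr15:102977032-102984444), had 910 and 381 of 7413 bases in WT and 540 and 861 in cKO, again overlapping. Hoxc5 had 448 and 0 of 3422 bases in WT and 0 and 472 in cKO, so each genotype had a library with a peak and a library without. Hoxc12 had 347 of 1784 bases and Hoxc8, a gene of the lower cervical and thoracic cord, had 676 of 3737, both in cKO replicate 2 alone. Hoxc13, a gene of hair and nails, had 174 and 0 of 7684 bases in WT and 279 and 55 in cKO. Hoxc10 had 189 of 5103 in cKO replicate 2 alone.

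In HOX D, Hoxd1, which acts in nociceptive sensory neurons of mice (chr2:74762980-74765142), had 719 and 493 of its 2163 bases under peaks in WT and 753 and 736 in cKO. The groups did not overlap, though WT replicate 1 and cKO replicate 2 differed by few bases. Hoxd11, a gene of the forearm and kidney (chr2:74679558-74687016), had 1218 and 1106 of 7459 bases in WT and 1270 and 1428 in cKO, also without overlap. Hoxd13, a digit gene (chr2:74668225-74671603), had 636 and 428 of 3379 bases in WT and 560 and 408 in cKO. It was lowest in cKO replicate 2, the opposite of most members, and the groups overlapped. Hoxd9 (chr2:74697763-74700208) had 0 and 806 of 2446 bases in WT and 731 and 1161 in cKO. Hoxd8 had 529 of 3319 bases in cKO replicate 2 alone. Hoxd3, a gene of the first cervical vertebrae whose span contains Hoxd4, had 1036 and 0 of 36279 bases in WT and 445 and 1472 in cKO. Hoxd4 had 317 of 7183 in WT replicate 1 alone.

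**Figure D3:**
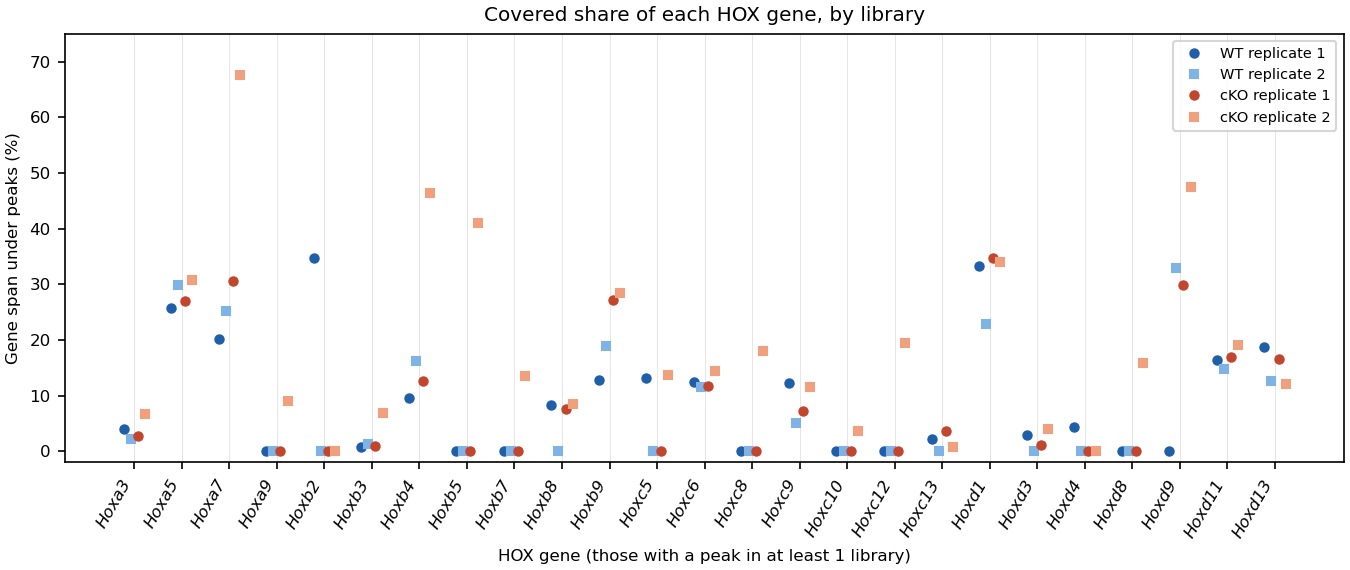
Percentage of each gene span under H3K4me peaks (y axis) in each of the 4 libraries, for the 25 HOX genes with a peak in at least 1. Hoxa5 and Hoxc6 have close values in all libraries, whereas cKO replicate 2 is the highest point for 19 of the 25.

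The fold enrichment the authors' caller gave to the recurrent pieces was read against the median of the list each came from. The piece on Hoxc6 had 4.25 and 4.15 in WT and 4.16 and 3.54 in cKO, above the list median in 3 of the 4 libraries. The piece at the Hoxd1 start had 4.16 and 3.96 in WT and 3.499 and 3.92 in cKO, also above in 3. The piece on Hoxa5 had 4.26 and 3.52 in WT and 3.85 and 4.58 in cKO, above in 2. The piece in Haglr had 3.25 and 3.09 in WT, both below, and 4.59 and 4.36 in cKO, both above. The pieces on Hoxb4 and Hoxd13 were above in 1 library each. The piece on Hoxa7 had 3.27 and 3.25 in WT and 3.05 and 3.00 in cKO, and that on Hoxb9 had 3.42 and 3.07 in WT and 3.29 and 3.17 in cKO. The piece on Hoxd11 had 3.67 and 3.08 in WT and 3.59 and 3.27 in cKO, and that on Hoxc9 had 3.29 and 3.37 in WT and 3.97 and 2.73 in cKO. These last 4 were below the list median in every library, and they include 3 of the members whose genotypes did not overlap in covered bases.

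Both cKO values were above both WT values for 4 of 38 members, Hoxa7, Hoxb9, Hoxd1 and Hoxd11, against 35.2% of all coding genes. Both were below for 0 members, against 1.6% of all coding genes. The members' share of cKO-higher spans was therefore under the background, which was not matched for span length. Among the 25 members with any peak, cKO replicate 2 had the most bases in 19, WT replicate 1 in 4, cKO replicate 1 in 2 and WT replicate 2 in 0.

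Loci were compared between genotypes with limma on log2(covered bases + 500), fitted on the 14937 coding loci with a mean of at least 1000 covered bases, each library centred on its median. With Benjamini-Hochberg adjustment, 0% of loci passed 0.05 as higher in cKO and 0% as lower. The smallest adjusted p of any locus was 0.407, and before adjustment 5.56% were higher and 4.43% lower at p under 0.05. Of the 38 HOX loci, 18 passed the filter on low coverage and 20 did not. The lowest mean kept was Hoxd13 at 1203 bases and the highest left out was Hoxd9 at 979 bases. No HOX locus passed at an adjusted p (limma, 0.555 to 0.997) or at an unadjusted p under 0.05, the smallest unadjusted limma p being 0.104.

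Among the 18 loci, the difference cKO minus WT was above 0 for 16 and below 0 for 2, where 45% of all loci tested were above 0. Their median was 0.30, beside -0.04 for all loci tested. Neighbouring loci overlap for 37 of the 38 members, so they count the same peaks more than once. Without cKO replicate 2 the median of the same loci was -0.03 and 8 of 18 were above 0. With equal numbers of peaks in each list the median was 0.04 and 8 of 15 loci were above 0, and at equal covered length it was -0.57 and 2 of 7 were. Both settings drop the least significant peaks and take more from the cKO lists than from the WT lists. The coverage filter used the mean of all 4 libraries, so a locus could pass it through its cKO values alone. With no filter the median of all 38 members was 0.12 and 24 were above 0, beside a median of -0.21 for all loci. These 2 medians are not like for like. Without the filter, 5115 of 21883 loci and 4 of the 38 members hold no peak base in any library. Centring alone gives each of them a difference below 0.

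Among the loci that passed the coverage filter, the 3 highest differences were at Hoxd8, Hoxa7 and Hoxd3. At Hoxd8 and Hoxa7 the WT mean alone was under the minimum of the filter, so these loci were kept through their cKO values. Their place in this ranking therefore depends in part on the group in which they were high. The Hoxd8 locus had 384 and 806 covered bases in WT and 1256 and 3331 in cKO, a log2 difference of 0.89 ± 0.48 (SE; limma adjusted p = 0.555). The Hoxa7 locus had 597 and 1318 in WT and 1310 and 4901 in cKO, a difference of 0.76 ± 0.53 (SE; limma adjusted p = 0.629). The Hoxd3 locus had 1706 and 532 in WT and 1882 and 4068 in cKO, a difference of 0.74 ± 0.42 (SE; limma adjusted p = 0.565). At Hoxd8 and Hoxd3 the groups did not overlap and at Hoxa7 they did, and cKO replicate 2 was the highest at all 3. Without cKO replicate 2 the differences were 0.41, 0.06 and 0.36. The 2 loci below 0 were Hoxc6 and Hoxc8, which are neighbours and share peaks. The Hoxc6 locus had 2423 and 1567 bases in WT and 1611 and 3350 in cKO, a difference of -0.17 ± 0.33 (SE; limma adjusted p = 0.865), which turned to 0.21 without centring. The Hoxc8 locus had 2616 and 1948 in WT and 2151 and 3498 in cKO, a difference of -0.15 ± 0.28 (SE; limma adjusted p = 0.860), which turned to 0.24 without centring. Prdm16 had a difference of -0.14 ± 0.07 (SE; limma adjusted p = 0.519), which likewise turned to 0.25 without centring.

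**Figure D4:**
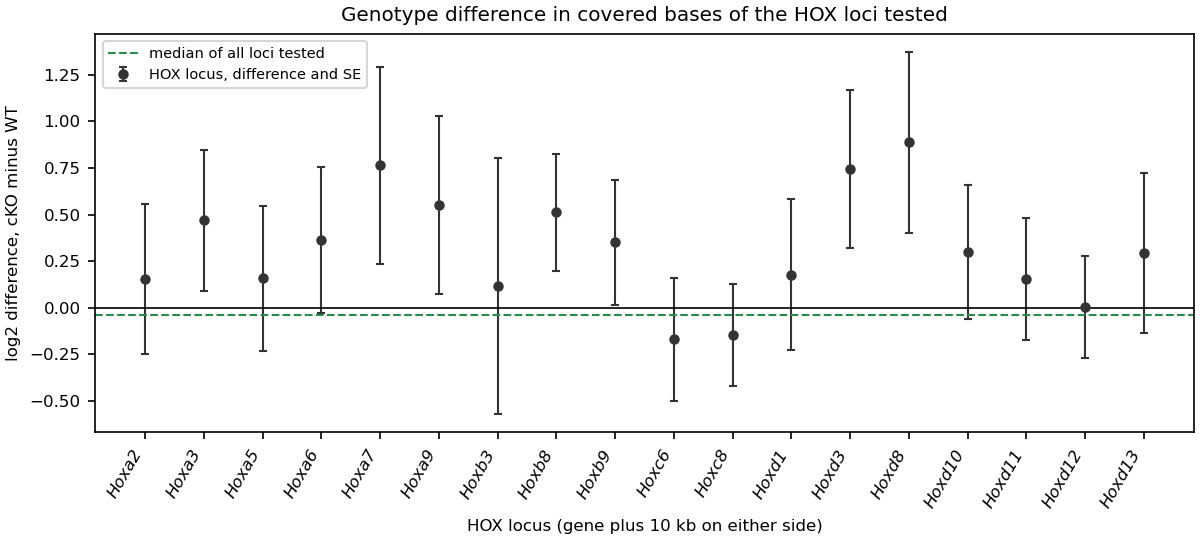
The log2 difference in covered bases, cKO minus WT (y axis), with its SE from limma, for the 18 HOX loci that passed the coverage filter; the dashed line is the median of all 14937 loci tested. Values run from -0.17 at Hoxc6 to 0.89 at Hoxd8, and no locus passed the adjusted threshold.

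Promoter windows could be read for 22 members, with 24 windows because Hoxd11 and Hoxa10 each have 2. Peaks in all 4 libraries overlapped 3 windows, or 12.5%, against 22.6% of 21262 windows of all coding genes. The Hoxa5 window shown above had 169 and 150 of its 300 bases under peaks in WT and 135 and 294 in cKO. The window of the Hoxd11 start within the gene was covered over all 300 bases in every library, while its other start, farther upstream, had 0 bases in all of them. The Hoxd1 window had 70 and 300 bases in WT and 300 and 300 in cKO. The mark therefore lay over the start in these 3 windows. Within 1 kb on either side of the start, 6 windows had peak bases in every library, those of Hoxa5, Hoxa7, Hoxb4, Hoxd1, Hoxd11 and Hoxd13, against 47.1% of all windows. There were 14 windows (58.3%) with none within 1 kb in any library, against 36.2% of all windows.

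CpG content was described for the 6 windows near recurrent peaks and the 14 without, with no test. The median ratio of observed to expected CG was 0.840 for the 6 and 0.593 for the 14, where all coding windows had 0.567 and all member windows 0.626. The Hoxa5 window shown above had 29 CG and a ratio of 1.02, and the Hoxd1 window had 29 and 0.805. The sets overlapped. Among the 6, the Hoxa7 window had 9 CG and a ratio of 0.405, and the Hoxb4 window had a ratio of 0.593. Among the 14, the Hoxa13 window had 45 CG, 81.0% G and C and a ratio of 0.918, with no peak base in any library. The sequence TATAAA, read on either strand, was in 4 of 24 member windows (16.7%) and in 12.6% of all windows. TGATTNAT, a form of the joint Pbx and Hox binding site read on either strand, was in 2 member windows (8.33%), the second Hoxd11 window and that of Hoxa2, and in 2.75% of all windows. A match is a description of letters and not evidence of binding.

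Of 22 long noncoding RNA genes inside the clusters, 2 had peaks in all 4 libraries and 12 had none; the share over all such genes was not computed. Haglr, which starts beside Hoxd1, had 670 and 1339 bases under peaks in WT and 1881 and 2003 in cKO, with no overlap between the groups. Other genes of HOX D had no overlap either. Gm14424, which lies within Haglr, had 0 and 0 bases in WT and 475 and 495 in cKO. Gm38462 had 0 and 0 in WT and 146 and 1357 in cKO, and Hoxd3os1 had 384 and 0 against 525 and 768. How often this occurs over all long noncoding RNA genes was not computed. Hoxaas3, which overlaps Hoxa5 and Hoxa6, had 847 and 945 bases in WT and 848 and 2830 in cKO, with overlap. Hotair, in HOX C, had none. The 6 miRNA genes, Mir196b, Mir196a-1, Mir10a, Mir196a-2, Mir615 and Mir10b, are 68 to 110 bases long, and none overlapped a peak.

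The 100 kb windows beside each cluster were set against its inside. Inside, the mean over the 4 libraries was 3.46% ± 2.12 (SD) in HOX A, 2.06% ± 1.45 in HOX B, 2.96% ± 1.26 in HOX C and 6.46% ± 2.69 in HOX D. The 100 kb beyond Hoxa2 were covered over 10.9% ± 3.40 (SD, n = 4) and the 100 kb beyond Hoxa13 over 3.85% ± 2.83. The 100 kb beyond Hoxb1 were covered over 12.8% ± 2.26 and those beyond Hoxb13 over 1.66% ± 0.827. Those beyond Hoxc4 were covered over 12.02% ± 2.55 and those beyond Hoxc13 over 0.467% ± 0.470. In HOX A, B and C the 3' side was thus the more covered one, while the 5' sides of HOX A and HOX B differed from the inside by less than the SD. In HOX D both sides were low, at 2.45% ± 0.785 beyond Hoxd13 and 0.688% ± 0.778 beyond Hoxd1.

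Other gene lists gave the HOX loci a scale. The median HOX locus was covered over 2.85% and 1.66% in WT and 2.48% and 7.15% in cKO, a mean of 3.54% ± 2.46 (SD, n = 4 libraries). The median of all coding loci was 5.02% and 4.02% in WT and 6.20% and 7.002% in cKO, a mean of 5.56% ± 1.31. HOX was the lower in 3 libraries and slightly the higher in cKO replicate 2. The most covered HOX locus, Hoxc8, had a mean of 10.8%, and 31.0% of all coding loci had a higher mean. In limma, no member of any of the lists below passed the adjusted threshold.

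Homeobox genes outside the clusters that build the forebrain were covered far more, with a median of 31.4% ± 4.78 for 20 genes. Emx2 and Lhx2, which set cortical identity, had means of 77.2% and 66.3%, and Pax6, of cortical progenitors, had 66.3%. The lowest were Otx2 at 16.2%, Six3 at 8.32% and Nkx2-1, of the ventral forebrain, at 7.82%. Six3 and Nkx2-1 were thus below the highest HOX loci, Hoxc8 at 10.8%, Hoxd12 at 10.3%, Hoxa6 at 10.2%, Hoxa7 at 8.85% and Hoxa2 at 8.35%. The 6 ParaHox genes, the sister family of Hox, had a median of 5.96% ± 2.65. In that family Gsx2 and Gsx1, which act in the ventral forebrain, had 34.4% and 17.8%. Cdx1 had 9.51%, and the tail and gut genes Cdx2 and Cdx4 had 2.41% and 0.917%. Pdx1, of the pancreas, had 0.866%.

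Genes that work with or on the HOX clusters were covered in every library with few exceptions. The 9 TALE cofactors, which bind DNA jointly with Hox proteins, had a median of 17.8% ± 1.85, with Meis2 at 51.7% and Pbx2 at 47.5% among the highest and Meis3 at 14.6%, Pbx3 at 11.5% and Pbx4 at 10.2% the lowest. The 13 genes of retinoic acid signalling and upstream regulation had a median of 18.1% ± 3.13, from Rara at 60.5%, Gbx2 at 50.4% and Fgf8 at 33.5% to Kmt2b at 13.9%, Aldh1a2 at 2.37% and Rarb at 1.92%. The 15 Polycomb group genes had a median of 20.4% ± 4.01, from Cbx8 at 64.7% and Cbx2 at 45.0% to Eed at 6.06%, Ezh2 at 3.39% and Suz12, which had no peak. The 15 genes that flank the clusters had a median of 7.24% ± 1.15, from Hnrnpa1 at 25.2%, Cbx5 at 23.4% and Smug1 at 21.2% to Tax1bp1 at 2.01%, Lnpk at 1.87% and Calcoco2 at 1.74%. The lists of cofactors, regulators and Polycomb genes thus had medians, averaged over the libraries, above the mean of every HOX locus.

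**Figure D5:**
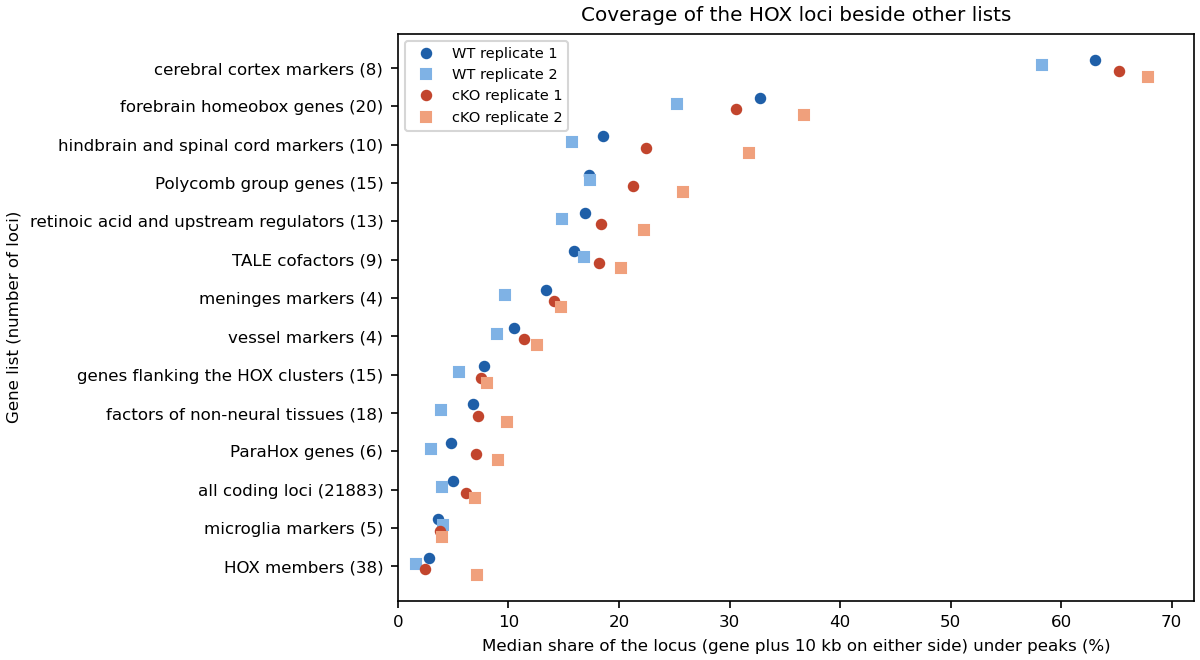
Median share of the locus under H3K4me peaks (x axis, %) for each gene list (y axis, number of loci in brackets), 1 point per library. HOX members are lowest in 3 libraries, at 1.66% to 2.85%, and reach 7.15% in cKO replicate 2.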

How the data were processed

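H3K4me ChIP-seq of 4 libraries was used, 2 WT and 2 cKO; the 4 input libraries were not analysed here. FastQC, cutadapt, Bowtie2 2.2.8, MACS2 2.1.1 and mm10 are named in the submitters' processing notes; the sources used here do not give the calling options. The authors deposited 1 broad peak list per library, with peak positions (other), a score that is 10 times the -log10 q, the fold enrichment, and the -log10 p and -log10 q of each peak. Chromatin was native and cut with micrococcal nuclease, per the labels' protocols. Read depth is unknown, so no counting intervals are given.

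Bases under peaks were counted in Python 3.11.15 per gene span, locus (10 kb on either side) and cluster interval, with RefSeq positions of GRCm38. Loci were tested with limma 3.58.1 in R 4.3.3 (trend; log2 with a pseudocount of 500 bases; mean of at least 1000 bases; median centring; Benjamini-Hochberg). Cluster values had a two-sided exact permutation test. The code was tested on simulated data. Promoters of 16 members were not used here: Hoxa4, Hoxb2, Hoxb3, Hoxb5, Hoxb6, Hoxb7, Hoxb9, Hoxb13, Hoxc5, Hoxc6, Hoxc8, Hoxc9, Hoxc10, Hoxc11, Hoxc12 and Hoxc13.

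Members and gene lists were chosen with earlier results of these data known. Values per library were given for the 5 most covered members of each cluster, the 3 highest and 3 lowest locus differences (2 were below 0), members whose groups did not overlap, and Prdm16; from the other lists the 3 highest and 3 lowest were named, except some that are not reported here.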

Additional observations from a re-analysis of the deposited data

How the results depend on the processing

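No HOX locus passed the adjusted threshold in limma under any alternative, the smallest adjusted p being 0.0972 with no filter. Without the filter, 206 of all loci passed as higher and 196 as lower; 5115 of the loci tested there hold no peak base in any library, so their difference comes from centring alone. Without WT replicate 1, 119 passed as higher and 5 as lower, and with any other library left out, 0 passed. The members' median ran from -0.03 to 0.60 with a library left out and was -0.57 over 7 loci at equal covered length; no centring moved the median of all loci to 0.35. Hoxc6 reversed to 0.21 without centring and ran from -0.52 without cKO replicate 2 to 0.18 without cKO replicate 1, Hoxc8 reversed to 0.24 and ran from -0.36 to 0.063, and Prdm16 reversed to 0.16 at equal covered length and 0.25 without centring. Cluster log2 ratios reversed at equal covered length to -0.32 (A), -0.21 (B), -0.73 (C) and -0.42 (D), and for A to -0.31 with equal numbers of peaks. Members with peaks in all libraries numbered 7 with stricter peaks, 2 at equal covered length and 21 with 10 kb flanks. Pieces in every library numbered 6 with stricter peaks and 1 at equal covered length. Pieces in every cKO and no WT library numbered 0 with equal numbers of peaks or equal covered length and 2 to 12 with a library left out. Pieces in every WT and no cKO library numbered 1, 3 and 0 to 2 under the same alternatives. Promoter windows numbered 1 at equal covered length and 6 within 1 kb. The members' median was 0.04 with equal numbers of peaks, and without cKO replicate 2 the log2 ratios of HOX A, B and C were 0.13, 0.31 and 0.07. The causes of these moves were not tested. Replicate 1 deviated from its group mean in WT and cKO with r = -0.10 across 14937 loci. That value cannot decide whether same-numbered libraries were prepared together, so any pairing is unknown. With the replicate block 0 loci passed in either direction and the members' median stayed at 0.30. Unknown depth limits the reading of absent peaks: a locus without a peak was not shown to lack the mark.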

Other observations

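Lists of other tissues lay nearer to the HOX loci than the brain lists did. The 18 developmental factors of tissues outside the nervous system had a median covered locus of 6.97% ± 2.43 (SD, n = 4 libraries). Hand2 and Pitx1 had means of 18.4% and 15.9%, and Gata4, Myf5 and Hnf4a had 2.66%, 1.31% and 0.238%. Of the 8 cortex markers, Neurod2, Emx2 and Lhx2 were highest at 87.2%, 77.2% and 66.3%, and Emx1 and Neurod6 were among the lowest at 56.8% and 44.4%. Of the hindbrain and spinal cord markers, Egr2, which acts upstream of Hox genes in the hindbrain, had 31.9%, Lhx5 had 24.3%, and Olig3 and Pax2 had 14.5% and 14.3%.

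Microglia markers ran from Aif1 at 11.6%, Csf1r at 5.70% and Spi1 at 2.79% to Cx3cr1 at 2.15% and P2ry12 at 1.13%. The 4 vessel markers had a median of 10.9% ± 1.51, with Pdgfrb at 16.5%, Pecam1 at 13.9%, Kdr at 7.26% and Cdh5 at 7.05%. The 4 meninges markers had a median of 12.98% ± 2.27, with Foxc1 at 25.8%, Col1a1 at 21.6%, Col1a2 at 4.19% and Dcn at 3.34%.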
